A study of Mus musculus with 3 samples.

Results

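The dual-specificity MAP kinase phosphatases Dusp1, Dusp2, Dusp4, Dusp5, Dusp6, Dusp7, Dusp10 and Dusp16 were examined in the bone marrow (BM) transcriptome of LECT2-treated mice. They were chosen by gene name, as 8 of the 17250 gene names in the deposited tables, and each of the 8 was listed with reads at every time point. LECT2 is a secreted protein that the study gave to mice to examine its effect on haematopoietic stem cells. C57BL/6 mice of 6-8 weeks, male according to the methods, received recombinant LECT2 under the skin at 300 μg per kg once a day for 3 or 5 days, and the group of 0 days received none of these daily injections. Flushed BM cells of femur, tibia, pelvis and humerus gave 1 poly(A) RNA-sequencing library per time point, so that 0, 3 and 5 days stand for 3 libraries in all. The labels and methods name flushed cells, while a legend of the study names mononuclear BM cells, and which of these preparations the libraries hold is not settled by the sources used here. The number of mice behind a library is not given in the sources used here. With 1 library per time point no difference has a replicate check, and no p-value is given.

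MAP kinases (ERK, JNK and p38) carry signals from growth factors, cytokines and stress to the nucleus, and they are active only while a threonine and a tyrosine in their activation loop are both phosphorylated. The dual-specificity phosphatases remove both phosphates and so switch the kinases off. Several of their genes are themselves switched on by the same kinases, which makes them a negative feedback and, in many cells, immediate early or delayed early genes. In myeloid cells Dusp1 is best known for limiting p38 and JNK signalling after Toll-like receptor stimulation, and Dusp6 for restraining ERK. By where they act and on which kinase, the members fall into an inducible nuclear class (Dusp1, Dusp2, Dusp4, Dusp5), a cytoplasmic class selective for ERK (Dusp6, Dusp7), and a class that acts mainly on JNK and p38 (Dusp10, Dusp16).

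The stretches upstream of 4 members are shown because the results below turn on these genes: Dusp1 and Dusp2 had the highest levels before treatment, Dusp5 differed little at 5 days, and Dusp7 was the member that was higher. Each is a run of 200 bases, from 250 to 51 bases before the RefSeq start of the gene (GRCm38.p6), written 5′ to 3′ on the strand of the gene. They lie at chr17:26508523-26508722 on the minus strand for Dusp1, and on the plus strand at chr2:127335909-127336108 for Dusp2, chr19:53528895-53529094 for Dusp5 and chr9:106368382-106368581 for Dusp7. Capitals mark the cyclic AMP response element (CRE, TGACGTCA), its core TGACG on either strand, and CArG boxes, the sites of serum response factor.
Dusp1: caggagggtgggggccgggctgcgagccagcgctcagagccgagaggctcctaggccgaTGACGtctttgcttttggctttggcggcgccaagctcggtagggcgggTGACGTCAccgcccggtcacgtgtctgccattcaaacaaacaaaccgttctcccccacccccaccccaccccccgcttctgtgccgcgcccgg
Dusp2: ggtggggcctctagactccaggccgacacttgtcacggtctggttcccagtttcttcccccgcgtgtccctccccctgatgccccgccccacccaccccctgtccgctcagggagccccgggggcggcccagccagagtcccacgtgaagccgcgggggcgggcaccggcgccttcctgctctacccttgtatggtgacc
Dusp5: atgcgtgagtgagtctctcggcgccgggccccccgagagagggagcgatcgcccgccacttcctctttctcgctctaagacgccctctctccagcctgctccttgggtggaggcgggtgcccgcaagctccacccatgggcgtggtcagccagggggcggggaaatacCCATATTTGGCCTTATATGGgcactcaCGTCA
Dusp7: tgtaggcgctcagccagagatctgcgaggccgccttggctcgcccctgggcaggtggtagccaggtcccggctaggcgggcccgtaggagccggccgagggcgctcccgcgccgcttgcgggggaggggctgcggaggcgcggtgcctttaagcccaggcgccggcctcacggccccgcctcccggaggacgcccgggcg

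RefSeq promoters were found for 7 of the 8 members, all but Dusp4. On both strands of the 250 bases before the start, the full CRE was matched in Dusp1 alone, 143 to 136 bases before the start, where 1.55% of 32851 RefSeq promoters hold one. The TGACG core, which the full CRE holds on both strands, was matched in 3 members (Dusp1, Dusp5, Dusp16), against 17.8% of all promoters. Dusp5 alone held CArG boxes, a pair that lies 82 to 73 and 72 to 63 bases before the start, against 1.47% of all promoters with at least 1. The GC box GGGCGG was matched in 5 members (Dusp1, Dusp2, Dusp5, Dusp10, Dusp16) and in 32.7% of all promoters. None of the 7 held the AP-1 site TGANTCA (6.75% of all promoters), the NF-kB site (7.25%), the ETS core CCGGAA (12%) or the TATA box TATAAA (12.4%). A match describes the letters and says nothing of binding.

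In GENCODE M21 (GRCm38), Dusp1 lies on the minus strand at chr17:26505590-26508519 (the transcript nearest in length to the listed one), Dusp2 at chr2:127336159-127338376, Dusp4 at chr8:34807297-34819894 and Dusp5 at chr19:53529109-53542431. Dusp6 lies at chr10:99263231-99267489, Dusp7 at chr9:106368632-106375724, Dusp10 at chr1:184013302-184075636 and, on the minus strand, Dusp16 at chr6:134715468-134792625. The lengths listed for them run from 1155 bases (Dusp5) to 5124 bases (Dusp16).

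In the libraries, 15523952, 15146983 and 15514673 reads were counted on genes at 0, 3 and 5 days. Levels are given as RPKM, the reads scaled to the gene's listed length in kilobases and to the size of the library, so that 1 read on 1000 bases was worth 0.0644 to 0.0660 RPKM. A ratio is the log2 ratio of RPKM with a pseudocount of 0.1 added, and brackets hold its exact 95% interval by Clopper-Pearson from the 2 read counts, for counting error only. The 100 most abundant rows took 27.2%, 23.3% and 17.5% of the reads in the libraries of 0, 3 and 5 days. Scaling by TMM, which sets a trimmed mean of the log ratios of genes to zero, brought the median ratio of all genes at 5 days from 0.31 to 0.00, and many ratios are also given under TMM. Gene length moved with the ratios too, and some values are also given with the length trend removed by lowess.

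**Figure D1:**
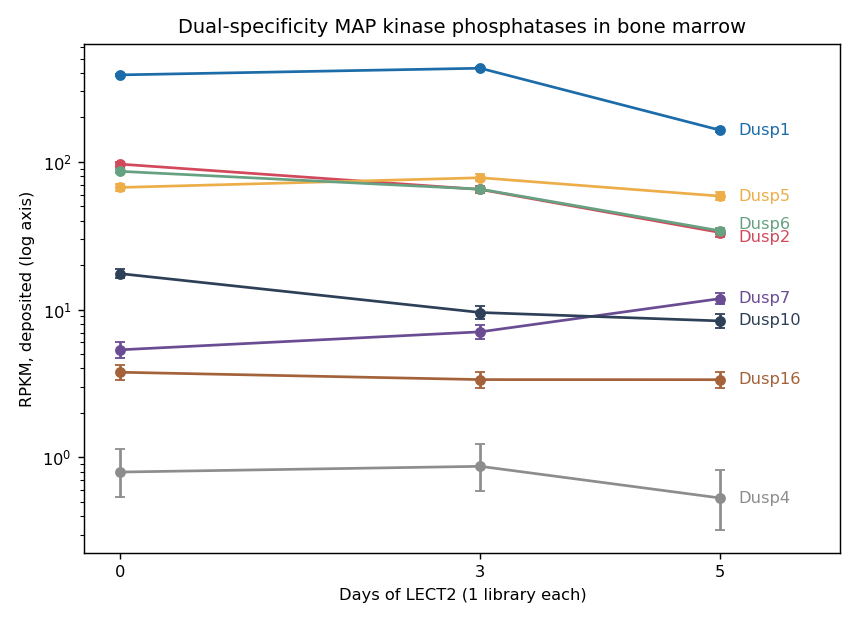
Level of each member in the 3 libraries, in RPKM on a log axis against days of LECT2, with 1 library a point and exact Poisson 95% intervals (counting error only) as bars. Dusp1 lay above all other members at each time point, Dusp2, Dusp6 and Dusp10 were lower in each later library, Dusp7 was higher in each, and Dusp4 stayed under 1 RPKM.

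After LECT2 treatment for 5 days, 4 members (Dusp1, Dusp2, Dusp6, Dusp10) were lower than at 0 days by 2-fold or more and 1 (Dusp7) was higher by 2-fold or more, out of the 7 members with at least 1 RPKM in either library. Of all 11497 genes that passed the same minimum, 5.91% were lower and 15.5% higher by this measure. The median ratio of the 7 members was -1.05, beside 0.31 for all genes. Dusp5 and Dusp16 lay within 2-fold, and Dusp4 did not pass the minimum. Under TMM Dusp1, Dusp2, Dusp6 and Dusp10 were again at least 2-fold lower, none was at least 2-fold higher, and the median was -1.36. By this scaling 10.2% of 11446 genes were lower and 7.13% higher by 2-fold or more. With a pseudocount of 1 the count of lower members was 3, since Dusp10 then had -0.98. Of all genes past 2-fold, 72.4% were on the higher side with deposited RPKM and 41.3% under TMM, and these shares were 62.9% and 48.9% at 3 days and 36.1% and 10.6% from 3 to 5 days.

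At 3 days no member was 2-fold higher or lower. Of all 11325 genes that passed the minimum, 4.08% were higher and 2.41% lower by 2-fold or more. The members' median was -0.16 (-0.24 under TMM), beside 0.09 for all genes. The comparison of 5 with 3 days does not use the library of 0 days. Here 1 member was at least 2-fold lower (Dusp1) and 0 were higher, where 3.45% of 11375 genes were lower and 1.95% higher. The members' median was -0.41, beside 0.25 for all genes. Under TMM, 3 members were at least 2-fold lower from 3 to 5 days (Dusp1, Dusp2 and Dusp6), where 4.91% of all genes were.

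**Figure D2:**
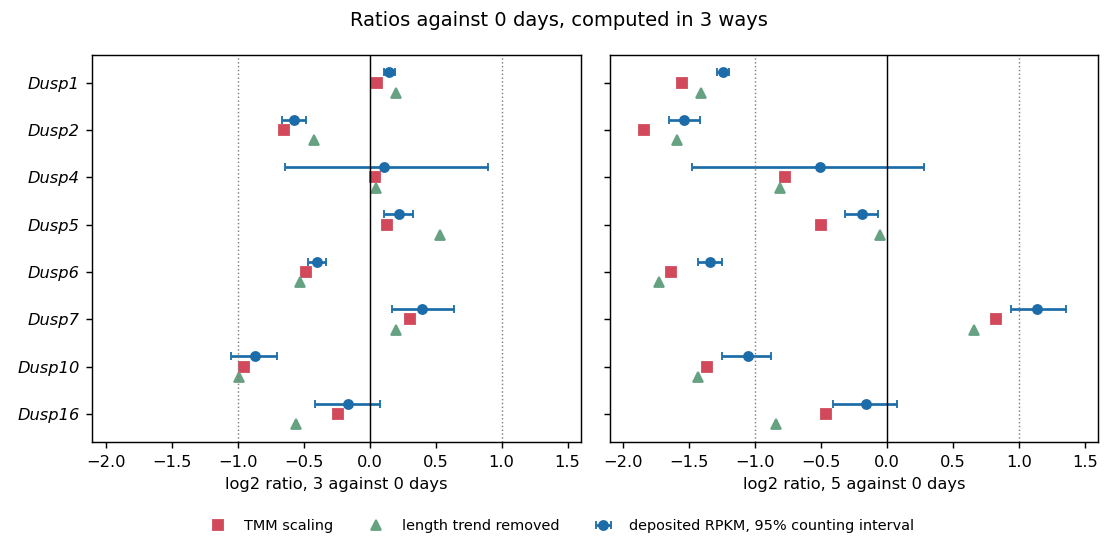
log2 ratio of each member at 3 days (left) and at 5 days (right) against 0 days, computed from deposited RPKM, with TMM scaling and with the length trend removed. Bars are exact 95% intervals of the read counts for the deposited values, and dotted lines mark 2-fold. At 5 days Dusp1, Dusp2, Dusp6 and Dusp10 lay past the lower line in all 3 ways of computing, and Dusp7 past the upper line with the deposited values only.

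Dusp1 (MKP-1), an immediate early gene whose product removes phosphate from p38, JNK and ERK in the nucleus, was the most abundant member. Its reads numbered 11756 before treatment, 12727 after 3 days and 4958 after 5 days of LECT2, which is 388, 430 and 164 RPKM. These levels put it at the 98.7th, 99.1st and 97.7th percentile of the genes with reads in the respective library. The libraries of 0 and 3 days were close to each other and the library of 5 days was well below both. Against 0 days the ratio was 0.15 [0.11, 0.19] at 3 days and -1.24 [-1.29, -1.20] at 5 days. Between 3 and 5 days it was -1.39 [-1.44, -1.35]. Under TMM these were 0.06, -1.55 and -1.62. At 5 days Dusp1 lay at percentile 4.18 of the ratios of all genes that passed the minimum.

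Dusp2 (PAC-1), a nuclear phosphatase first found in activated haematopoietic cells, was lower in each later library. It had 2444, 1607 and 841 reads at 0, 3 and 5 days, or 96.6, 65.1 and 33.3 RPKM. After 5 days 34.4% of the untreated level was left, the lowest share among the 8 members. The ratio was -0.57 [-0.66, -0.48] at 3 days and -1.54 [-1.65, -1.42] at 5 days, at percentile 2.72 of all genes that passed the minimum. TMM gave -0.65 and -1.84. The difference from 3 to 5 days was -0.97 [-1.09, -0.85], just short of 2-fold.

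Dusp5, an ERK-selective nuclear phosphatase that also holds ERK in the nucleus, had 1204, 1367 and 1051 reads in the libraries of 0, 3 and 5 days. In RPKM these were 67.1, 78.1 and 58.7, so that 3 days was highest and 5 days lowest, within a narrow range. The ratio was 0.22 [0.11, 0.33] at 3 days and -0.19 [-0.32, -0.07] at 5 days. TMM gave 0.13 and -0.50. The listed length of Dusp5 (1155 bases) equals its coding length in GENCODE M21, whereas those of the other members exceed theirs by 673 to 3141 bases. With the longest transcript (2473 bases), a length chosen after seeing the data, its RPKM would be 31.4, 36.5 and 27.4. The length does not enter the ratio of 2 libraries, but it does enter the removal of the length trend, which gave 0.53 at 3 days and -0.05 at 5 days with the listed length, and 0.14 and -0.51 with the longer one. The span of Dusp5, introns included, also overlaps that of the antisense gene AC137853.2. Whether their exons overlap was not examined. The libraries are not stated to keep the strand, so antisense reads on exons of Dusp5, if there are any, could not be told apart.

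Dusp4 (MKP-2), the closest relative of Dusp1 among nuclear phosphatases, was low in all 3 libraries. It had 30, 32 and 20 reads, or 0.796, 0.870 and 0.531 RPKM at 0, 3 and 5 days. The ratio at 5 days was -0.51 [-1.48, 0.28], or -0.77 under TMM and -0.23 with a pseudocount of 1, and a difference was not detectable at this depth.

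Dusp6 (MKP-3), the cytoplasmic phosphatase of ERK that ERK signalling itself induces, was lower in each later library. It had 3771, 2788 and 1490 reads, or 86.3, 65.4 and 34.1 RPKM at 0, 3 and 5 days. The ratio was -0.40 [-0.47, -0.33] at 3 days, -1.34 [-1.43, -1.25] at 5 days and -0.94 [-1.03, -0.85] from 3 to 5 days. Under TMM these were -0.48, -1.64 and -1.16, and with the length trend removed the ratio at 5 days was -1.73.

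Dusp7 (MKP-X), the other cytoplasmic ERK phosphatase in the group, went the other way. It had 268, 346 and 595 reads in the libraries of 0, 3 and 5 days, or 5.35, 7.08 and 11.9 RPKM. The ratio was 0.40 [0.17, 0.64] at 3 days and 1.14 [0.94, 1.36] at 5 days, at percentile 88.8 of all genes that passed the minimum. It was 0.83 at 5 days under TMM and 0.66 with the length trend removed, both above 0 and short of 2-fold. From 3 to 5 days it was 0.74 [0.55, 0.94].

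Dusp10 (MKP-5), which acts on JNK and p38 and is known as a restraint on innate immune cytokine production, differed mainly in the first interval. It had 738, 393 and 353 reads, or 17.5, 9.57 and 8.39 RPKM at 0, 3 and 5 days. The library of 0 days was above the other two, which lay close together. At 3 days the ratio was already -0.87 [-1.05, -0.70], and at 5 days -1.05 [-1.25, -0.88]. From 3 to 5 days it was -0.19 [-0.40, 0.02], an interval that includes 0. Under TMM it was -0.95, -1.36 and -0.41. With the length trend removed the ratio at 5 days was -1.43, and with a pseudocount of 1 it was -0.98, short of 2-fold.

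Dusp16 (MKP-7), a JNK-selective phosphatase that shuttles between nucleus and cytoplasm, was low in all 3 libraries. It had 300, 261 and 267 reads, or 3.77, 3.36 and 3.36 RPKM at 0, 3 and 5 days. The ratio was -0.16 [-0.41, 0.08] at both 3 and 5 days, an interval that includes 0. Under TMM it was -0.24 and -0.46, the second outside that interval. With the length trend removed it was -0.56 and -0.84, and Dusp16 has the longest listed length of the members (5124 bases). Its span overlaps that of the antisense gene Gm36328, where exon overlap was likewise not examined, with the same limit as for Dusp5.

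**Figure D3:**
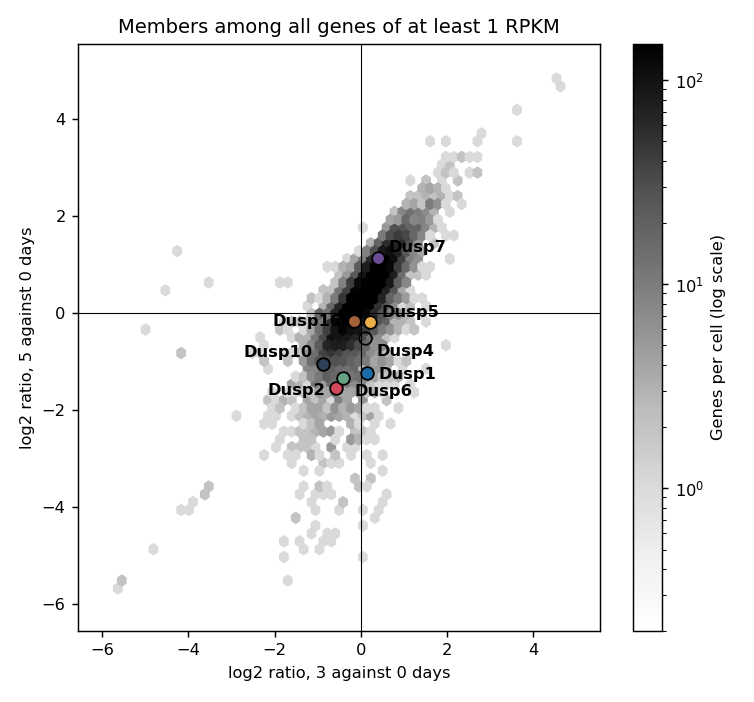
log2 ratio at 3 days (x axis) against the ratio at 5 days (y axis), both against the library of 0 days, which the 2 axes share. Grey cells count all genes of at least 1 RPKM, coloured points are the members, and Dusp4 (under 1 RPKM) is the open circle. Dusp1 lies at 0.15 and -1.24, to the right of and above Dusp2 at -0.57 and -1.54, and Dusp7 is the member highest on both axes, at 0.40 and 1.14.

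The order of the members changed between the libraries. At 0 days it was Dusp1, Dusp2, Dusp6, Dusp5, Dusp10, Dusp7, Dusp16 and Dusp4, and no neighbouring Poisson intervals overlapped. At 3 days it was Dusp1, Dusp5, Dusp6, Dusp2, Dusp10, Dusp7, Dusp16 and Dusp4, and only Dusp6 and Dusp2 overlapped. At 5 days Dusp7 stood above Dusp10, and again only Dusp6 and Dusp2 overlapped. The place of Dusp5 at rank 2 at 3 and 5 days rests on its short listed length, since with the longest transcript it ranked 4 in every library.

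Summed over the 8 members, the level was 665, 660 and 314 RPKM in the libraries of 0, 3 and 5 days. That left 99.2% of the untreated sum after 3 days and 47.2% after 5 days. Dusp1 alone made up 58.3%, 65.2% and 52.2% of the sums. Without Dusp1 the sum was 278, 230 and 150 RPKM, or 82.7% and 54.1% of that at 0 days. The inducible nuclear class (552, 575 and 256 RPKM), the ERK-selective cytoplasmic class (91.7, 72.5 and 46.0 RPKM) and the JNK and p38 class (21.3, 12.9 and 11.7 RPKM) stood at 46.4%, 50.2% and 55.2% of 0 days after 5 days. Under TMM the sum of all 8 was 729, 682 and 277.5 RPKM. All these sums and shares take Dusp5 at its listed length. With its longest transcript Dusp5 would have 31.4, 36.5 and 27.4 RPKM at 0, 3 and 5 days, so that each sum that holds it would be lower and the percentages would change.

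**Figure D4:**
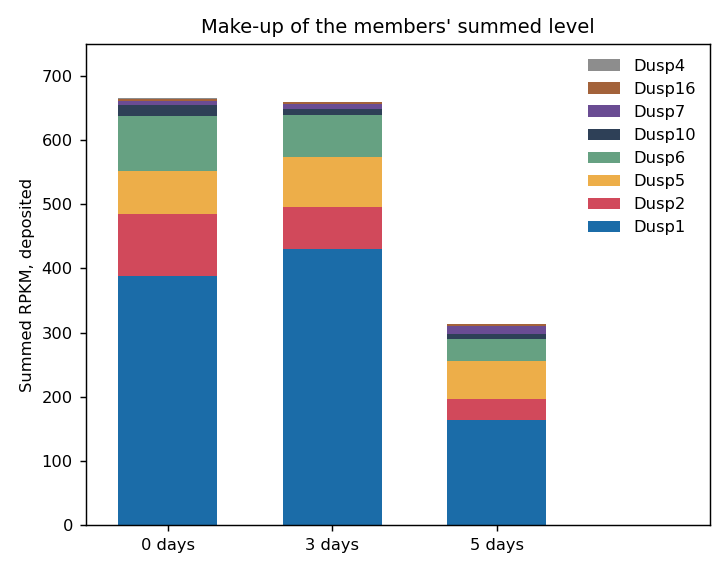
Summed RPKM of the members in each library (bars from 0), divided by member. The bars of 0 and 3 days are nearly equal (665 and 660) and the bar of 5 days is 314, with Dusp1 the largest part of each. Dusp5 is drawn at its listed length.

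Ratios of 2 members within a library do not depend on the scaling of libraries, but they do move with the removal of the length trend. The level of Dusp7 was 0.0620, 0.108 and 0.348 times that of Dusp6 in the libraries of 0, 3 and 5 days, a log2 difference of 2.49 at 5 days (95% interval of the 4 read counts 2.26 to 2.72). Dusp5 stood at 0.695, 1.20 and 1.76 times Dusp2, a difference of 1.34 at 5 days (1.18 to 1.51). With the longest transcript of Dusp5 these would be 0.325, 0.561 and 0.824 times Dusp2, below 1 in every library, while the difference stays as it is. Dusp16 stood at 0.215, 0.352 and 0.400 of Dusp10, a difference of 0.90 (0.60 to 1.20), or 0.59 with the length trend removed. Dusp1 stood at 4.02, 6.61 and 4.92 times Dusp2, a difference of 0.29 at 5 days (0.17 to 0.42), or 0.19 with the length trend removed. In each of these pairs the first member was higher relative to the second at 5 than at 0 days. The pairs were not planned beforehand and the order within a pair sets the sign, so the shared direction is no result. The intervals cover counting error only.

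Of the remaining classical phosphatases, Dusp8 had 2.53, 2.05 and 1.36 RPKM and Dusp9 0.427, 0.754 and 0.736 RPKM at 0, 3 and 5 days. The ratio of Dusp8 at 5 days was -0.85, and it passed 2-fold under TMM (-1.14) and with the length trend removed (-1.50). Of 14 atypical dual-specificity phosphatases with a row, 9 passed the minimum at 5 days. Of these, 0 were at least 2-fold higher and 1 lower, beside 15.5% higher and 5.91% lower among all genes. Their median was 0.55 (0.25 under TMM), beside 0.31 for all genes. Dusp11, Dusp22 and Dusp3, the most abundant of them, had ratios of 0.60, 0.55 and 0.72. The 1 lower was Dusp18, named after its value was seen, with 115, 64 and 15 reads. Other phosphatases that act on MAP kinases had a median of 0.16 over 6 genes (-0.15 under TMM), beside 0.31 for all genes. Of the 6, 0 were past 2-fold, beside 15.5% higher and 5.91% lower among all genes. Ppp2ca, Ppp2cb and Ptpn7 had -0.09, 0.18 and 0.62.

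The kinases upstream of and targeted by the phosphatases were listed from general knowledge. Among 11 MAP kinases that passed the minimum, 1 was 2-fold or more higher and 1 lower at 5 days, beside 15.5% higher and 5.91% lower among all genes, with a median of 0.27 (-0.04 under TMM). Mapk13, which encodes p38δ, had 119, 71.7 and 28.5 RPKM, a ratio of -2.06 at 5 days. Mapk14, which encodes p38α, had 45.2, 76.6 and 91.2 RPKM, a ratio of 1.01 (0.70 under TMM), and Mapk3, which encodes ERK1, had -0.56. The 7 MAP2K genes had 0 past 2-fold and a median of 0.13, which was -0.18 under TMM and -0.19 with the length trend removed, and Map2k1, Map2k2 and Map2k3 had ratios of 0.13, 0.11 and -0.10.

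Of 18 MAP3K genes that passed the minimum, 3 were at least 2-fold higher and 0 lower, with a median of 0.75, beside 15.5% of all genes that were higher. Under TMM 1 was higher and 0 lower (median 0.45), and with the length trend removed 0 were higher and 1 lower (median 0.00). The 3 were Map3k3 (1.02), Map3k4 (1.09) and Map3k6 (1.45), the last named after its value was seen. Taok3, among the most abundant, had 0.65. Of 10 kinases that MAP kinases activate, 2 were at least 2-fold higher, Rps6ka3 (1.73) and Mapkapk3 (1.62), and 0 lower, beside 15.5% and 5.91% of all genes. The median was 0.64, which was 0.34 under TMM and 0.18 with the length trend removed. Mapkapk2, Mknk2 and Rps6ka1 had 0.40, 0.63 and 0.65. Of 11 other feedback inhibitors of Ras and ERK, 4 were at least 2-fold higher and 1 lower, with a median of 0.07, beside 15.5% higher and 5.91% lower among all genes. Under TMM 2 were higher and 1 lower (median -0.23), and with the length trend removed 2 were higher and 3 lower (median -0.02). The 4 were Spred1 (1.67), Spred2 (1.64), Rasa1 (1.16, or 0.86 under TMM) and Nf1 (1.00, or 0.71 under TMM), and the 1 lower was Spry1 (-1.08). Of these, Spred1, Nf1 and Spry1 were named after their values were seen. The most abundant were Pebp1 (0.03), Rasa3 (0.57) and Rasa2 (-0.69).

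The next list holds genes often used as a readout of ERK activity. Of 16 that passed the minimum, 11 were lower by 2-fold or more at 5 days and 0 higher, with a median of -1.64, beside 5.91% lower among all genes. Under TMM 12 were lower (median -1.95, beside 10.2% of all genes), and 12 with the length trend removed. Fos, an AP-1 subunit, had 700, 890 and 319 RPKM, the order that Dusp1 also had. Egr1, a zinc finger factor, had 284, 209 and 34.2 RPKM, a ratio of -3.05. Junb, Plaur, Egr2, Phlda1 and Fosb had -1.77, -2.18, -3.03, -3.02 and -2.53. The other 5 lay within 2-fold, and they are named after their values were seen: Fosl2 (-0.88, or -1.19 under TMM), Egr3 (-0.68), Etv5 (0.31), Ccnd1 (0.34) and Myc (0.38).

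**Figure D5:**
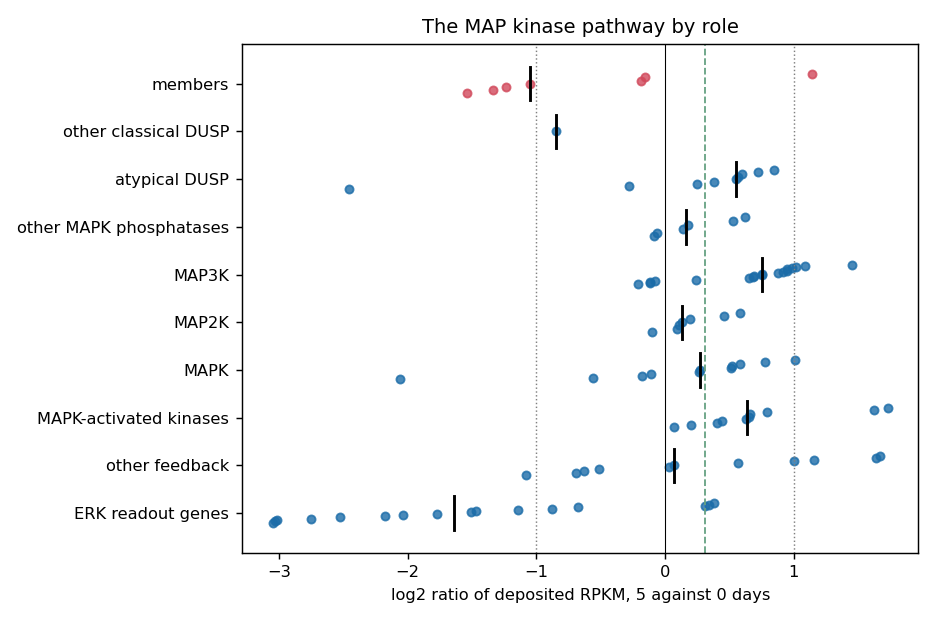
log2 ratio at 5 against 0 days of the genes of each list with at least 1 RPKM in either library, with 1 point a gene and black bars at the list's median. Dotted lines mark 2-fold and the green dashed line the median of all genes (0.31). Of the lists plotted, the members (-1.05), the ERK readout genes (-1.64) and the other classical phosphatases, with Dusp8 (-0.85, or -1.14 under TMM) as their 1 gene, have medians below 0 with deposited RPKM. Under TMM, which is not plotted, the medians of the other MAPK phosphatases (-0.15), MAPK (-0.04), MAP2K (-0.18) and other feedback (-0.23) were below 0 too.

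By distance in the 2 ratios (3 and 5 days against 0 days, 3 libraries), the genes nearest to Dusp1 among 8191 genes (mean level of 5 RPKM or more) were 1600010M07Rik (0.0119), Mir22hg (0.0823), Tlr2 (0.103), Col1a2 (0.106) and Stx11 (0.124). Tlr2, a Toll-like receptor, had 47.1, 54.9 and 20.9 RPKM. Nearest to Dusp2 were Cxcl12 (0.0276), Rgs1 (0.0442), Btg1 (0.0790), Rabgef1 (0.0836) and Dhrs7 (0.0889). Cxcl12, the chemokine that holds stem cells in the BM, had 15.9, 10.9 and 5.38 RPKM. The 2 ratios share the library of 0 days.

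Markers of several cell types differed between the libraries as well. The 12 late neutrophil markers summed to 150030, 116000 and 41373 RPKM at 0, 3 and 5 days and were lower at 5 than at 0 days in 12 of 12, and the 8 osteolineage markers summed to 71.3, 68.1 and 26.3 RPKM, lower in 7 of 8. The sums of the 7 erythroid (4382, 3551 and 1534), 9 B cell (2420, 1915 and 1738), 12 T and NK cell (259, 149 and 211), 6 megakaryocyte (40.5, 20.6 and 37.1) and 7 endothelial and stromal markers (60.4, 48.5 and 51.9) were lower at 5 than at 0 days, with 4 of 7, 9 of 9, 10 of 12, 4 of 6 and 4 of 7 markers lower. In that order, the median ratios of the markers that passed the minimum were -0.30, -0.43, -0.36, -0.06 and -0.98 at 5 days. Under TMM they were -0.61, -0.74, -0.66, -0.36 and -1.25. The sums of 6 promyelocyte (2248, 2082 and 3631) and 14 monocyte and macrophage markers (1559, 1766 and 2092) were higher, with 0 of 6 and 4 of 14 markers lower. Their median ratios at 5 days were 0.56 and 0.55, beside 0.31 for all genes, and 0.25 and 0.24 under TMM. All sums and counts of lower markers given here are of deposited RPKM. None of these markers was at 0 reads in any library. Their part in the members' ratios was not tested, and in these samples of mixed BM cells fewer cells of a type and less RNA per cell cannot be told apart.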

How the data were processed

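Per the labels, RNA of flushed BM cells was made into Illumina TruSeq RNA libraries, and the methods name a HiSeq instrument and Cufflinks 1.0.3 for quantitation. The submitters' processing notes name the build mm8, and the aligner is not given in the sources used here. The authors deposited 3 tables of pairwise comparisons with whole read counts, gene lengths and RPKM for each gene. The deposited RPKM equalled the counts scaled by length and by the reads on listed genes, for every member and for all rows but 18 (0 days) and 14 (3 days), within a tolerance of 0.1%. The authors' own log2 ratios, p-values and FDR in these tables hold their comparisons and were not used. Genes without reads, listed at 0.01 RPKM, were set to 0.

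The members and the lists of other genes were chosen with earlier results of these data known. Where a gene name had more than 1 row, the most abundant row by mean RPKM was used. A gene passed the minimum with at least 1 RPKM in either library, and past 2-fold means a log2 ratio of RPKM + 0.1 of at least 1 in size. Of each other pathway list the text names the 3 genes with the highest mean RPKM and at most 4 genes past 2-fold with at least 5 RPKM in either library, largest first. One gene that this rule names is not reported here. For likeness it names the 5 genes nearest to the most abundant member and to the member with the largest ratio at 5 days. Intervals are exact Clopper-Pearson or Poisson 95% intervals, or normal intervals of the log odds ratio for ratios of 2 members.

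Alternatives were pseudocounts of 1 and 0.01, TMM (edgeR 4.0.16) and median-of-ratios scaling (DESeq2 1.42.0) of the deposited counts, scaling without the 100 most abundant genes, removal of the length trend (lowess, span 0.3, statsmodels 0.14.6), summing the rows that share a name, a minimum of 5 RPKM or none, and a 4-fold threshold. The steps were tested on simulated counts. Gene models came from GENCODE M21 (GRCm38) and promoters from RefSeq (GRCm38.p6), builds that differ from mm8, so no coordinate was joined to the tables. Motifs were matched exactly on both strands. A planned comparison of the members' proteins was not run. Computations used Python 3.11.15, pandas 2.3.3, numpy 2.4.6, scipy 1.17.1, matplotlib 3.10.9 and R 4.3.3.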

Additional observations from a re-analysis of the deposited data

How the results depend on the processing

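No paired analysis was possible because there is 1 library per time point, and for the same reason no library could be left out of a comparison. The members' median at 3 days was -0.16 and became -0.42 with the length trend removed, -0.24 to -0.25 under the 3 other scalings (TMM, size factors by median of ratios, or leaving the 100 most abundant genes out) and -0.02 with no minimum. The median at 5 days was -1.05 and became -1.36 under TMM, -1.35 with median-of-ratios size factors, -1.25 when the 100 most abundant genes were left out of the scaling, -1.41 with the length trend removed and -0.78 with no minimum, which lets Dusp4 in. From 3 to 5 days it was -0.41 and became -0.64 under TMM, -0.63 under median-of-ratios scaling, -0.60 with the length trend removed and -0.67 with a minimum of 5 RPKM. The count of members at least 2-fold higher at 5 days was 1 and became 0 under all 3 other scalings, with the length trend removed and at a 4-fold threshold. The count at least 2-fold lower at 5 days was 4 and became 3 with a pseudocount of 1 (without Dusp10) and 0 at a 4-fold threshold. From 3 to 5 days it was 1 and became 3 under the same 3 scalings and after removal of the length trend, and 0 at a 4-fold threshold. Beyond the stricter threshold and the members a minimum admits, the cause of these differences was not tested.

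Of 24 ratios of single members, the number that left the counting interval was 15 under TMM, 15 with median-of-ratios size factors, 11 when the 100 most abundant genes were left out of the scaling, 18 after removal of the length trend, and 0 under either pseudocount or the sum of all rows. None changed sign. Depth limits Dusp4 most, with 20 to 32 reads.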
